A study of Homo sapiens with 8 samples.

Results

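The 8 libraries of poly(A)-selected RNA from T24 xenograft tumours were divided by their level of THBS1, the gene of thrombospondin-1, and the division was defined by that measured value and not by any label. T24 is an established human bladder cancer cell line, and a xenograft is a tumour that it forms in a mouse. A library was put on the THBS1-low side where THBS1 was under 400 TMM-scaled CPM (read counts per gene divided by an effective library size and put on the usual CPM scale), and on the THBS1-high side otherwise. The low side held 3 of the 8 libraries (control 3, the library labelled DDR1 1, and DDR1 4) and the high side held the other 5 (controls 1, 2 and 4, and DDR1 2 and 3). The labels name 2 conditions with 4 libraries each, tumours from T24 cells without and with enforced expression of DDR1, a receptor tyrosine kinase for collagen, and both conditions lie on both sides, with 1 control library and 2 libraries labelled DDR1 on the low side. No mouse strain, mouse age, tumour site, harvest time, vector or clone is given in the sources used here, and nothing there says that the tumours came from separate animals, so any p-value below measures only the spread between these libraries. Replicate numbers follow accession order and only name a library.

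Thrombospondin-1 is a secreted glycoprotein of the matricellular class, proteins that sit in the extracellular matrix and act on cells more than they build it. It binds CD36, CD47, integrins and heparan sulphate, it releases transforming growth factor beta from its latent complex, and it is a classical inhibitor of blood vessel growth. Many cells make it, among them fibroblasts, endothelium, platelets and tumour cells.

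Since THBS1 chose the sides, its own values are given only to show the choice. THBS1 (ENSG00000137801, chromosome 15, positions 39581079 to 39599466 of GRCh38) stood at 25.9 CPM in the library labelled DDR1 1, at 113 in DDR1 4 and at 193 in control 3. On the other side it stood at 654 CPM in control 2, 887 in DDR1 2, 958 in control 1, 1225 in control 4 and 3320 in DDR1 3. Control 3 and control 2 were the libraries nearest to the threshold on either side, and no library lay between these 2 values. The low side is not uniform, since its highest library held several times the THBS1 level of its lowest. All genes come from the same libraries as THBS1, so the differences between the sides below are a description with no test.

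The label was checked on DDR1 itself. DDR1 stood at 110 to 210 CPM in the 4 controls, at 343, 426 and 808 CPM in DDR1 2, 3 and 4, and at 159 CPM in the library labelled DDR1 1. That library lies within the range of the controls, so its label goes against its DDR1 level, and it is written as the library labelled DDR1 1 throughout. DDR1 did not follow the THBS1 sides, with 159, 210 and 808 CPM on the low side against 110 to 426 on the high side.

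Promoter sequences of 4 genes are shown because these genes carry the contrast between the sides: THBS1 defines it, VCAM1 and CXCL10 have some of the largest deficits on the low side, and MUC2 one of the largest excesses. Each is the run of 250 bases before the transcription start in the RefSeq table on GRCh38.p14, written 5′ to 3′ on the strand of the gene. Capitals mark matches, on either strand, to 5 motifs searched by their letters: the AP-1 motif TGANTCA, the TEAD motif GGAATG, the kappa B motif GGGNNTTCC bound by NF-kB, the interferon element (a pair of TTTC blocks with any 2 bases between them), and the TATA motif TATAAA. THBS1 lies on the plus strand at chr15:39580829-39581078, VCAM1 on the plus strand at chr1:100719492-100719741, CXCL10 on the minus strand at chr4:76023498-76023747, and MUC2 on the plus strand at chr11:1074624-1074873.
THBS1: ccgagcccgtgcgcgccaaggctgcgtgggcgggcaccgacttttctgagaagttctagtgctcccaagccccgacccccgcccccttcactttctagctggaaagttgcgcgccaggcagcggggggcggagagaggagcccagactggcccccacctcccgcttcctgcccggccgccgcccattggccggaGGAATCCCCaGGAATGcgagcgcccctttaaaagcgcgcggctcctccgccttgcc
VCAM1: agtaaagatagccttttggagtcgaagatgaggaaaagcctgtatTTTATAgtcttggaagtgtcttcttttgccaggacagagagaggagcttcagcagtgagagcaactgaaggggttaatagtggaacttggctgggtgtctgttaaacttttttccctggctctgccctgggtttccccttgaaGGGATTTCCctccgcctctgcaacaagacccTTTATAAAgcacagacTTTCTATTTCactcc
CXCL10: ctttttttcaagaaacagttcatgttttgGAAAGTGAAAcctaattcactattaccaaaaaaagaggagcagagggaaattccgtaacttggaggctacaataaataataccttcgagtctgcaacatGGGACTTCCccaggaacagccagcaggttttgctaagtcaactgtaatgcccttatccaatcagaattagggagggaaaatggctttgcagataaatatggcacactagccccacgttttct
MUC2: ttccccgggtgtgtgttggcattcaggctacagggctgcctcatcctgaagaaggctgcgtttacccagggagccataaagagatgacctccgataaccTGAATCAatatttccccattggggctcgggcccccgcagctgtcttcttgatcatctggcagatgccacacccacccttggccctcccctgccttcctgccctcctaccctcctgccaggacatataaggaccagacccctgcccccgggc
The capitals in THBS1 are a kappa B match that begins 56 bases before the start and a TEAD match that begins 46 bases before it. VCAM1 holds a kappa B match at 62 bases, an interferon element at 15 bases, and TATA matches at 205, 31 and 29 bases, of which the last pair overlap. CXCL10 holds an interferon element at 221 bases and a kappa B match at 122 bases, and MUC2 holds an AP-1 match at 151 bases. A match of letters is a description and shows no binding.

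Libraries held 20789449 to 32271016 expected counts on the low side and 13716285 to 31105184 on the high side, so the depths overlap. Genes with a count numbered 28344 to 29790 on the low side and 28259 to 35208 on the high side. Mitochondrial transcripts took 1.6% to 3.62% of counts on the low side and 1.2% to 2.54% on the high side, and small RNAs of RNA polymerase III took 9.1% to 12.3% and 6.96% to 15%. On the first principal component of all tested genes, which held 33.4% of the variance, the low libraries lay at 0.36, 0.55 and 0.41 and the high libraries between -0.39 and -0.15. Column names put the 3 low libraries under 3 different prefixes (R69_2, R70 and R71). Control 4, which shares its prefix with control 3, and DDR1 2 and 3, which share theirs with DDR1 4, lie on the high side.

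Among 18972 tested genes other than THBS1, a gene was counted as apart where the 3 low and the 5 high libraries did not overlap in log2 CPM and the means of the sides differed by at least 1 on the log2 scale. By that rule 600 genes were lower on the low side (3.16% of those tested) and 266 were higher (1.40%). The split became 573 lower and 127 higher when the median of genes of similar GC content was subtracted in each library. Over all tested genes the median difference in log2 CPM, low minus high, was 0.02, and 48.2% of genes lay below 0, so the excess of lower genes is in the large differences. With no size asked for, 2634 genes did not overlap, 1275 of them lower and 1359 higher. Many of the lower genes were close to undetected where they were low: 243 of the 600 had a median of 0.5 CPM or less on the low side. In bulk tumour RNA, fewer cells of a type and less RNA per cell cannot be told apart. Without the library labelled DDR1 1, 793 genes were lower and 444 higher among 19471 genes that passed the filter anew. Without control 3 the counts were 1035 and 479, and without DDR1 4 they were 1037 and 434. Leaving out DDR1 3, of the high side, gave 712 and 264. Fewer libraries can overlap less often, and a low and a high library left out are not alike in this. The reason for these counts was not tested.

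VCAM1, an adhesion molecule of the immunoglobulin family that binds integrin alpha 4 on leukocytes, was the clearest of the genes that mark the contrast. It stood at 20.5 CPM in control 3, 7.89 in the library labelled DDR1 1 and 6.84 in DDR1 4, against 290, 548 and 262 CPM in the other controls and 185 and 480 CPM in DDR1 2 and 3. Every low library lay far under every high one, and the mean CPM of the sides differed 30.1-fold. FN1, which encodes fibronectin, the fibril-forming glycoprotein to which integrins attach, was among the most abundant transcripts in every library. It stood at 4124 CPM in the library labelled DDR1 1, 7522 in DDR1 4 and 30776 in control 3, against 33377 to 91126 CPM on the high side. The sides do not overlap for FN1, but control 3 sits next to control 2 at 33377 CPM and the gap is carried by the pair labelled DDR1. TENM2, a teneurin, a transmembrane protein that pairs with latrophilins on neighbouring cells, did overlap. It stood at 0.86 CPM in the library labelled DDR1 1, 13.9 in DDR1 4 and 42.3 in control 3, against 36.6, 94.7 and 119 CPM in the other controls and 77.4 and 293 CPM in DDR1 2 and 3. Control 3 lay above control 1, so TENM2 follows the sides only among the libraries labelled DDR1.

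**Figure D1:**
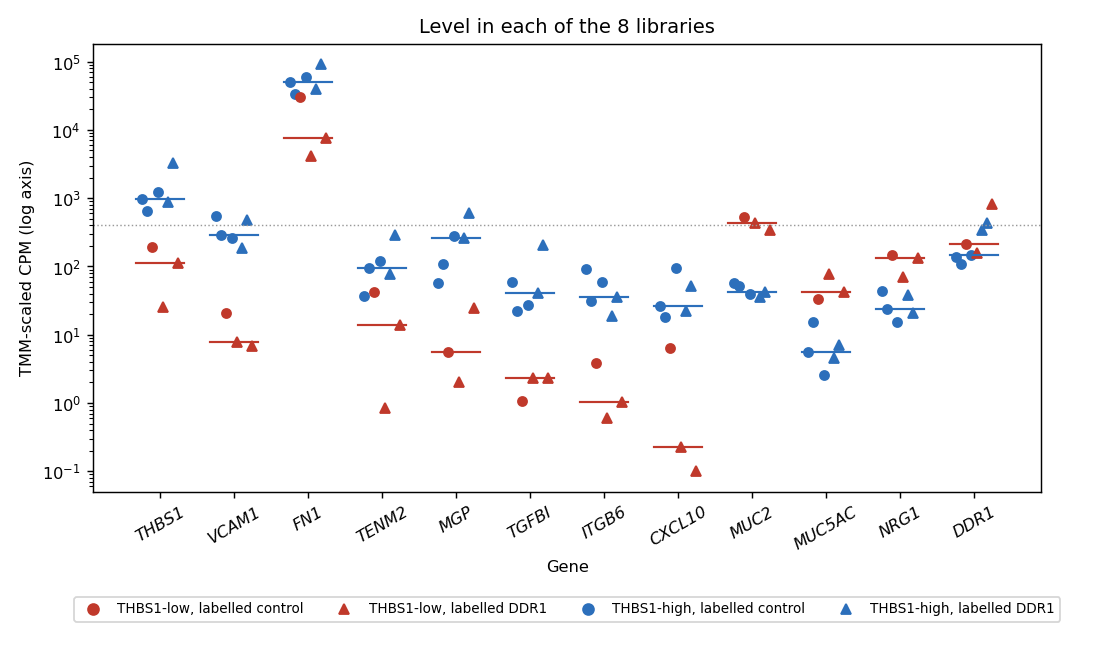
Levels of 12 genes in TMM-scaled CPM on a log axis, with one point per library (circles labelled control, triangles labelled DDR1, red THBS1-low, blue THBS1-high), side medians as short lines and the threshold of 400 CPM for THBS1 as a dotted line. VCAM1 and MUC2 separate the sides fully, FN1 barely, and TENM2 and DDR1 overlap.

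The 15 largest deficits of the low side, among protein-coding genes with a median of at least 5 CPM on their higher side, had log2 differences of -6.25 (ZNF385D) to -4.75 (CXCL11 and NEGR1). ITGB6, the integrin beta subunit that pairs with ITGAV and activates latent transforming growth factor beta on epithelia, stood at 3.82, 0.602 and 1.05 CPM in control 3, the library labelled DDR1 1 and DDR1 4, against 18.8 to 92.5 CPM on the high side. MGP, the matrix Gla protein that inhibits calcification, stood at 5.67, 2.04 and 24.7 CPM in the same order against 56.9 to 608 CPM. The low libraries lay under all others for both genes, and DDR1 4 was the nearest to the high side for MGP.

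CXCL10, a chemokine for T cells induced by interferon and NF-kB, stood at 6.44 CPM in control 3 but at 0.229 and 0.0998 CPM in the library labelled DDR1 1 and DDR1 4, against 18.3 to 96 CPM on the high side. CXCL11, its neighbour on chromosome 4 with the same receptor, stood at 1.72, 0.143 and 0.15 CPM against 5.71 to 45.8 CPM. For both chemokines control 3 took an intermediate place. COL3A1, a fibrillar collagen, stood at 0.0859, 0.0287 and 2.2 CPM against 3.27 to 26.7 CPM, so here DDR1 4 was the intermediate one.

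Cadherin-6 (CDH6) stood at 0.129, 0 and 1.95 CPM against 4.63 to 29.9 CPM. The growth factor gene FGF5 stood at 0.344, 0.086 and 0.349 CPM against 6.21 to 17.5 CPM. FLRT2, an adhesion ligand of latrophilins and UNC5 receptors, stood at 0.172, 0.0287 and 0.649 CPM against 5.84 to 16.7 CPM. FGF5 and FLRT2 were under 1 CPM in each low library, while CDH6 was so in control 3 and the library labelled DDR1 1 but stood at 1.95 CPM in DDR1 4. The metalloprotease TLL1, which processes procollagens, PRICKLE2, of planar cell polarity, and NEGR1, a neural adhesion molecule, had log2 differences of -4.99, -4.89 and -4.75.

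ZNF385D, CTNNA3 and OLFM4 complete the 15 largest deficits, and their high sides are themselves broad. ZNF385D, a zinc finger gene, ranged from 0.821 to 67.6 CPM on the high side and reached at most 0.0859 CPM on the low side, where its 3 libraries held 3 counts in all. CTNNA3, an alpha-catenin, ranged from 2.05 to 51.4 CPM against at most 0.402 CPM. OLFM4, a secreted glycoprotein known from intestinal crypts, ranged from 1.52 to 66.7 CPM against at most 0.499 CPM. For these genes the high libraries differ among themselves by more than 10-fold, so the deficit is sharp only in that the low side is nearly empty.

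In the other direction, among protein-coding genes with the same minimum level, MUC2 and NPBWR1 had the largest differences, each 3.28 in log2 CPM. MUC2, the gel-forming mucin of the intestine, stood at 530 CPM in control 3, 434 in the library labelled DDR1 1 and 344 in DDR1 4, against 56.8, 51.3 and 39.4 CPM in the other controls and 35.5 and 41.6 CPM in DDR1 2 and 3. Each side is tight, the sides are well apart, and the mean CPM differed 9.7-fold. MUC5AC, the gel-forming mucin of stomach and airway and a close neighbour of MUC2 on chromosome 11, stood at 33, 78.2 and 41.6 CPM against 2.58 to 15.3 CPM. Reads of such mucins can be split between family members by the authors' counting, which makes the 2 levels less certain.

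NPBWR1, a neuropeptide receptor, stood at 22.2, 19.7 and 23 CPM in control 3, the library labelled DDR1 1 and DDR1 4, against 0.456 to 6.06 CPM. NTSR1, the neurotensin receptor, stood at 6.92, 3.33 and 14.5 CPM against 0.228 to 2.21 CPM. LY6D, a surface marker of squamous and basal epithelium, stood at 57.3, 120 and 119 CPM against 2.2 to 47.9 CPM, and EPPK1, the cytolinker epiplakin of epithelia, at 62, 114 and 181 CPM against 7.52 to 37.4 CPM. NPBWR1, NTSR1, LY6D and EPPK1 were picked for the size of their difference between the sides, and DDR1 2 was the nearest high library for each. Among the epithelial junction genes and keratins given below, only PKP3 was apart.

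The remaining genes of the 15 largest excesses were TNXB, TPPP3, TNNI2, MEGF6, AC007325.2, ZNF727, HIST1H3D, SEMA3B and SLC47A2, with log2 differences of 2.1 to 2.67. AC007325.2 lies on the scaffold KI270734.1, outside the assembled chromosomes. It stood at 40.2 CPM in the library labelled DDR1 1 and reached only 6.19 and 3.04 CPM in the other low libraries, so its excess rests largely on that library.

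The 3 low libraries did not hold the low place equally. Of the 600 lower genes, the library labelled DDR1 1 was the lowest of all in 282, control 3 in 161 and DDR1 4 in 157. The library nearest to the high side was control 3 for 242 genes, DDR1 4 for 229 and the library labelled DDR1 1 for 129. Among the 266 higher genes the highest library was DDR1 4 for 106, control 3 for 87 and the library labelled DDR1 1 for 73.

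Each condition also holds the contrast within itself. Control 3 was at least 1 log2 unit lower than the mean of the other controls in 1552 genes (8.18% of those tested) and higher in 1243 (6.55%). Among the libraries labelled DDR1, the mean of 1 and 4 was at least 1 log2 unit lower than that of 2 and 3 in 1530 genes (8.06%) and higher in 803 (4.23%). These comparisons share no library, though both were chosen by the same THBS1 threshold. The lists of lower genes had 662 members in common, 42.7% of the control list and 43.3% of the DDR1 list. The lists of higher genes had 243 in common, 19.5% and 30.3% of the lists. Genes with opposite differences were fewer, 48 lower in control 3 and higher in the DDR1 pair, and 92 the other way. VCAM1 differed by -4.08 within controls and by -5.33 within the libraries labelled DDR1, and MUC2 by 3.44 and 3.33, so these 2 genes differed by similar amounts in both. FN1 differed by -0.59 and -3.43, and TENM2 by -0.81 and -5.37, so both differed mainly within the libraries labelled DDR1.

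**Figure D2:**
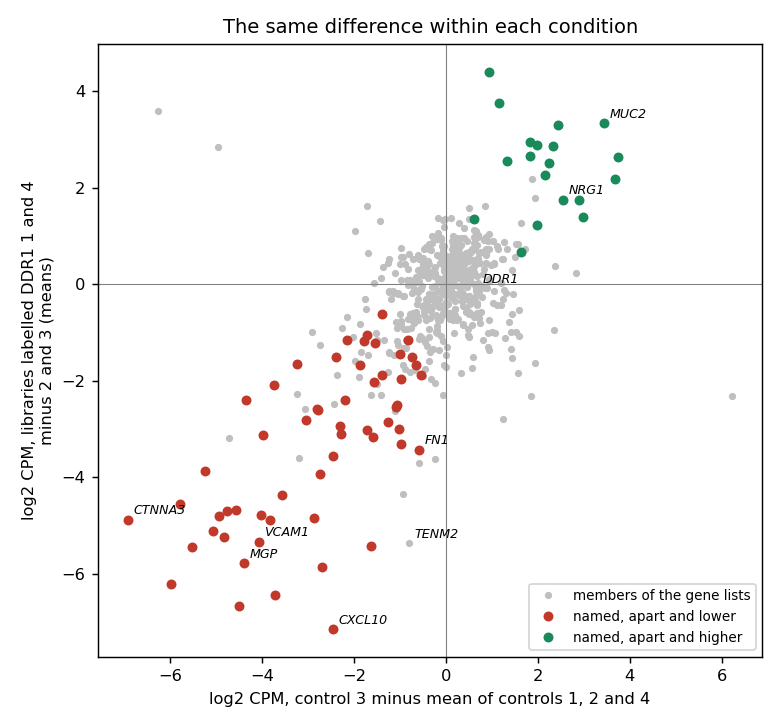
Difference in log2 CPM within controls (control 3 minus the mean of controls 1, 2 and 4, horizontal) and within libraries labelled DDR1 (1 and 4 minus 2 and 3, vertical), with one point per gene (grey, members of the gene lists; red and green, named genes that were lower or higher on the low side of the whole series). VCAM1 lies at -4.08 and -5.33, MUC2 at 3.44 and 3.33, and TENM2 at -0.81 and -5.37; the red and green genes were picked on the same libraries, so their place in these quadrants is no independent support.

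Among 30 gene lists by function, the matricellular genes had the lowest median difference. The lists were chosen with earlier results of these data known, and this one holds the relatives of THBS1, which made the split. VCAM1, FN1 and TENM2, fixed as markers of the contrast, are counted in their own lists. Each list is described by its count of genes apart and its median difference in log2 CPM. For all genes these were 3.16% lower, 1.40% higher and a median of 0.02. Of 14 tested matricellular genes other than THBS1, 8 were lower, 1 was higher and the median was -2.08. TGFBI, an integrin-binding protein induced by transforming growth factor beta, stood at 1.07, 2.35 and 2.35 CPM in control 3, the library labelled DDR1 1 and DDR1 4 against 21.9 to 203 CPM. Tenascin-C (TNC), a matricellular glycoprotein of remodelling tissue, stood at 127, 177 and 309 CPM against 771 to 1911 CPM. THBS2, the closest relative of THBS1, stood at 7.95, 12.6 and 53.4 CPM against 60.6 to 165 CPM, and SPARC, a collagen-binding glycoprotein, at 62.7, 32.2 and 105 CPM against 123 to 373 CPM.

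CTGF, a matricellular target of YAP, stood at 7.69, 5.91 and 24.2 CPM against 39.1 to 138 CPM, and FBLN5, a fibulin of elastic fibres, at 0.258, 1.15 and 1.3 CPM against 1.49 to 38.6 CPM. MGP was given above, and COMP, the thrombospondin of cartilage, had 2 counts in all 3 low libraries together. DDR1 4 was the low library nearest to the high side for THBS2, SPARC, TNC and CTGF. Not every member followed: THBS3, FBLN1, NOV, SMOC1 and CYR61 overlapped between the sides, with differences of 0.54, 0.19, 0.67, -0.47 and -1.23. TNXB, the tenascin of loose connective tissue, was higher on the low side, at 3.74, 5.28 and 31.9 CPM against 0.076 to 2.68 CPM.

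Of 13 tested receptors and partners of thrombospondin-1, 1 was apart and lower and the median was -0.46. That gene was ITGAV, the integrin alpha V subunit, at 274, 182 and 139 CPM against 375 to 566 CPM. CD47, the receptor that also signals to macrophages, was at 79.4, 70.8 and 92.2 CPM against 112 to 148 CPM, which do not overlap but differ by only 0.63 on the log2 scale. The largest difference of the list was that of CACNA2D1, a calcium channel subunit that binds thrombospondins, at -3.78. It stood at 1.03 CPM in control 3 and 0.086 CPM in the library labelled DDR1 1, but at 39.5 CPM, the highest of all, in DDR1 4, so the sides overlap. CD36 overlapped too, with 0.215 to 3.04 CPM on the low side and 0.332 to 12.3 CPM on the high side.

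Among fibrillar and other collagens and their enzymes, 7 of 15 were lower, none was higher and the median was -1.15. COL6A3, a chain of the microfibrillar collagen VI, stood at 11.9, 1.69 and 4.64 CPM against 17.7 to 254 CPM. COL16A1, a fibril-associated collagen, stood at 1.37, 1.72 and 1.15 CPM against 4.29 to 14.5 CPM. COL8A1, of subendothelial matrix, stood at 29.8, 27.1 and 19.9 CPM against 84.2 to 186 CPM. COL5A2, which sets fibril diameter, stood at 234, 159 and 239 CPM against 287 to 647 CPM. PLOD2, a lysyl hydroxylase for collagen cross-links, stood at 100, 112 and 150 CPM against 277 to 431 CPM. COL6A1 and COL6A2, the partner chains of COL6A3, overlapped, at 193 to 1360 and 170 to 823 CPM on the low side. The chains of collagen VI therefore did not share the difference.

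Of 17 tested genes of fibronectin, laminins and basement membrane, 4 were lower and none higher, with a median of -0.76. Beside FN1 these were LAMA1, LAMA4 and COL4A1. LAMA1, the laminin alpha chain of embryonic basement membrane, stood at 0.73, 0.918 and 0.948 CPM against 5.47 to 7.71 CPM, 2 tight groups. COL4A1, the main chain of basement membrane collagen, stood at 183, 171 and 300 CPM against 406 to 796 CPM. Of 16 integrin subunits 5 were lower and none higher, with a median of -0.53. ITGA2 and ITGA11, both alpha subunits of collagen-binding integrins, stood at 266, 149 and 283 CPM against 301 to 1082 CPM, and at 2.28, 1.66 and 3.99 CPM against 8.88 to 60.2 CPM. The laminin-binding ITGA6 and ITGA3 overlapped, with differences of 0.01 and -0.27.

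Adhesion molecules showed the same direction at VCAM1 and at 4 more of 15, with none higher and a median of -0.61. ICAM1, the ligand of leukocyte beta 2 integrins, stood at 51.7, 34.3 and 98.3 CPM against 119 to 378 CPM. CADM1, an adhesion molecule of epithelia and synapses, stood at 0.816, 0.66 and 0.699 CPM against 4.44 to 23.7 CPM. CD44, the hyaluronan receptor, differed by -0.81 without overlap, at 912 to 1860 CPM against 2026 to 3302 CPM. Of 12 teneurins, latrophilins and their partners, 3 were lower (TENM4, ADGRL2 and FLRT2), 1 was higher (UNC5B, a netrin receptor) and the median was -0.52. TENM4 stood at 0.344, 0.258 and 2.2 CPM against 7.92 to 49 CPM, which separates the sides where TENM2 does not. TENM1 was at 43.1 CPM in control 3 and at 1.17 CPM or less in each of the other 7 libraries.

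**Figure D3:**
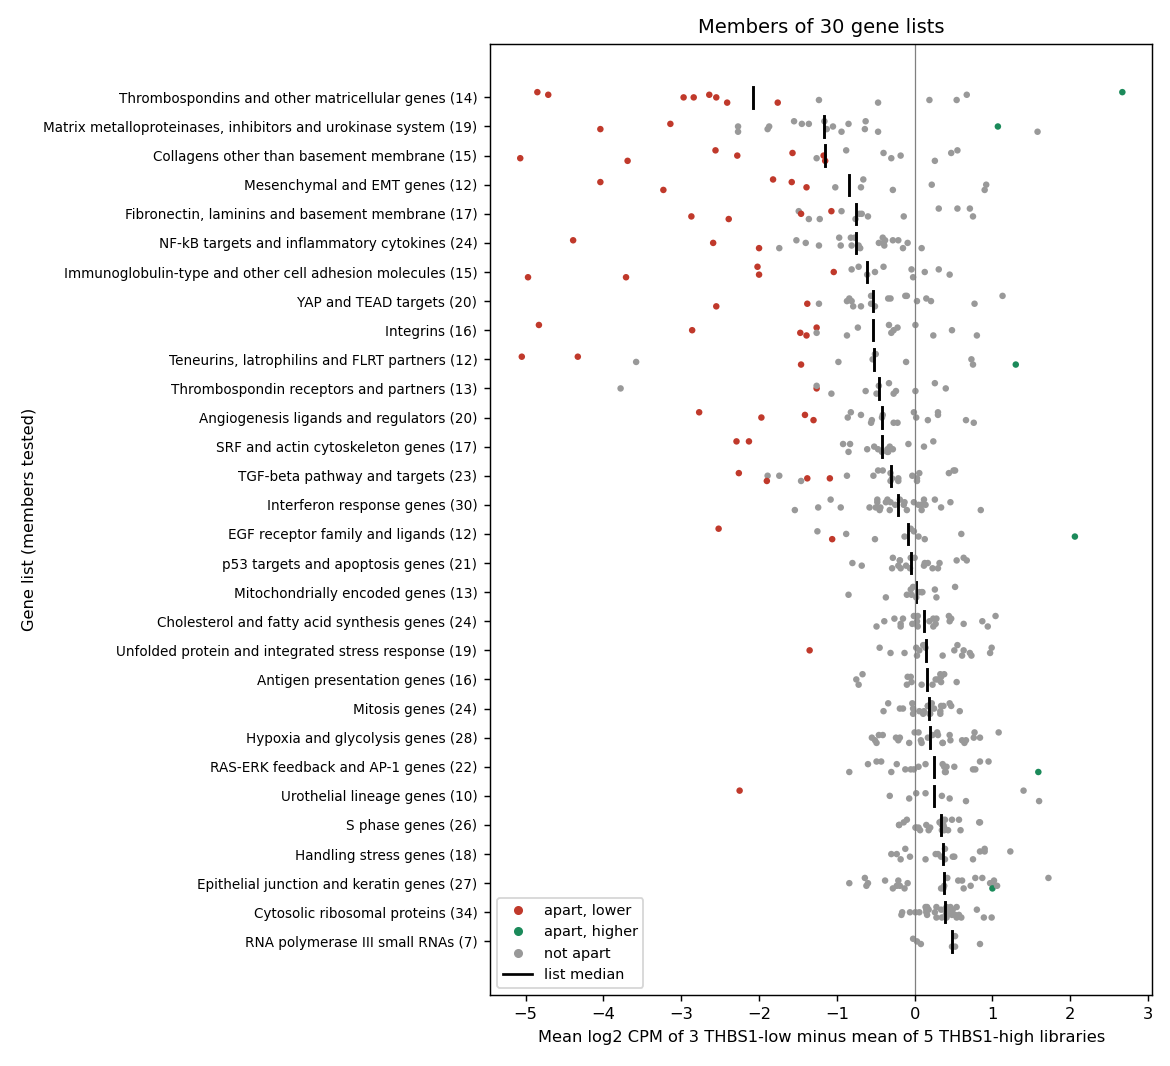
Difference in log2 CPM between the 3 THBS1-low and 5 THBS1-high libraries for each tested member of 30 gene lists (points; red apart and lower, green apart and higher, grey not apart) with list medians as black bars. Matricellular genes have the lowest median, -2.08, while ribosomal, S phase and mitosis genes have no member apart.

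Among proteases and their inhibitors, 2 of 19 were lower, 1 was higher and the median was -1.16. MMP2, gelatinase A, stood at 0.344, 0.201 and 0.2 CPM against 1.27 to 12.6 CPM, and MMP9, gelatinase B, at 0.516, 0.086 and 0.15 CPM against 1.01 to 7.79 CPM. MMP15, a membrane-type metalloproteinase, was higher, at 17.4, 9.06 and 13.1 CPM against 3.54 to 7.52 CPM. Of 12 mesenchymal genes 5 were lower and none higher, with a median of -0.85. CDH11, a mesenchymal cadherin, stood at 1.89, 2.15 and 1.45 CPM against 5.78 to 9.05 CPM, and ZEB2, a repressor of E-cadherin, at 11, 4.45 and 6.49 CPM against 13.4 to 33.1 CPM. The related repressor ZEB1 overlapped, with a difference of 0.22, and so did VIM, the gene of vimentin, with 0.90.

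In the list of transforming growth factor beta genes 4 of 23 were lower and none higher, with a median of -0.31. TGFB2, a ligand, stood at 13.9, 7.43 and 9.18 CPM against 14.7 to 37.2 CPM, and PMEPA1, a feedback inhibitor, at 102, 20.1 and 47.7 CPM against 106 to 340 CPM. ID3 and SKIL were the others, with differences of -1.90 and -1.09. The ligand TGFB1, the receptors and the SMAD2, SMAD3 and SMAD4 transducers overlapped. Of 20 targets of YAP and TEAD, CTGF and TGFB2 were lower and none was higher, with a median of -0.53. TPM1 and CALD1, actin-binding proteins, were the 2 lower genes of 17 in the list of SRF and actin genes, at 64.9, 70.3 and 57.1 CPM against 253 to 423 CPM, and at 25.4, 13.5 and 14.6 CPM against 41.7 to 175 CPM.

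In the list of angiogenesis regulators 4 of 20 were lower and none higher, with a median of -0.42. VEGFC, the growth factor of lymphatic vessels, stood at 50, 13 and 39 CPM against 65.2 to 177 CPM, EFNA1, an ephrin, at 13, 12 and 14.1 CPM against 22.9 to 72.8 CPM, and NRP2, a co-receptor, at 24.3, 10.6 and 45.3 CPM against 46.8 to 63.3 CPM. VEGFA, the main growth factor of blood vessels, overlapped with a difference of 0.76. NF-kB targets and cytokines leaned the same way in nearly every member, with 23 of 24 below 0 and a median of -0.75, though only 3 were apart. The median deviation from each gene's mean was 0.95, 0.34 and 0.75 in controls 1, 2 and 4, but -0.11 and -0.30 in DDR1 2 and 3. It was -0.40, -0.79 and -0.40 in control 3, the library labelled DDR1 1 and DDR1 4. The lean was thus larger against the high controls than against DDR1 2 and 3, and 16 of 24 genes were highest in control 1. CCL2, a monocyte chemokine, stood at 0.129, 0.143 and 0.898 CPM against 3.92 to 14.7 CPM, and IL6 stood at 1.29, 0.459 and 0.399 CPM against 3.67 to 4.8 CPM. ICAM1, given above, was the other. NFKBIA and NFKB2, of the pathway itself, had differences of -0.15 and -0.09.

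Of 12 genes of the EGF receptor family and its ligands, EGF and EPGN were lower and NRG1 higher, with a median of -0.09. NRG1, neuregulin-1, the ligand of ERBB3 and ERBB4, stood at 148, 69.2 and 131 CPM against 15.3 to 43.9 CPM, while the receptors EGFR, ERBB2 and ERBB3 overlapped. DUSP4, a phosphatase that dampens ERK signalling, was the only gene apart of 22 RAS-ERK and AP-1 genes, at 129, 80.3 and 136 CPM against 28.1 to 70.7 CPM. MYC was at 131 to 161 CPM on the low side and 55.9 to 102 CPM on the high side, without overlap but 0.95 apart on the log2 scale. Of 27 epithelial junction genes and keratins, PKP3, a desmosomal plakophilin, was apart and higher, none was lower and the median was 0.38. E-cadherin (CDH1) overlapped widely, with 166 CPM in the library labelled DDR1 1 and 3.64 CPM in DDR1 4, so the sides do not follow it.

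In the list of the unfolded protein and integrated stress response 1 of 19 was lower and none higher, with a median of 0.14. That gene was SLC7A11, the cystine transporter, at 4.98, 6.6 and 6.44 CPM against 11.3 to 26.5 CPM. It ran against most of its list, in which 15 genes lay above 0 and 4 below. With no size asked for, 8 of the 19 did not overlap, against 13.9% of all tested genes. Of 10 urothelial lineage genes FABP4, a fatty acid binding protein, was lower and none was higher, with a median of 0.25. FABP4 was at 0.0287 to 0.258 CPM against 0.456 to 1.37 CPM. No member was apart among 28 hypoxia and glycolysis genes, 24 genes of cholesterol synthesis, 26 S phase genes, 24 mitosis genes, 21 p53 targets, 34 cytosolic ribosomal proteins, 13 mitochondrially encoded genes, 7 RNA polymerase III small RNAs, 18 genes of handling stress, 16 antigen presentation genes and 30 interferon response genes. Their medians lay between -0.22 and 0.48. With no size asked for, 9 of 34 ribosomal protein genes and 2 of 18 handling stress genes did not overlap, against 13.9% of all tested genes. Of these lists only the handling stress genes had summed levels without overlap. They were at 1644 to 1978 CPM on the low side and 1093 to 1419 CPM on the high side, and the reason was not tested. Abundant members weigh most in such a sum, and HSPA1A alone was at 439 to 535 CPM against 152 to 369 CPM. By median deviation of the list the sides overlapped. It was 0.02 in control 3, -0.16 in the library labelled DDR1 1 and 0.66 in DDR1 4, against -0.30 to 0.10 on the high side. S phase genes were lowest in DDR1 3, the library with the highest THBS1, in 24 of 26 members, and its median there was -0.72 from the mean of each gene over the libraries. Among ribosomal protein genes 31 of 34 lay above 0, with a median of 0.39, but the low libraries split, at 0.40 in the library labelled DDR1 1, 0.37 in DDR1 4 and -0.05 in control 3.

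Interferon response genes set the low libraries apart from each other. Of 30 genes, 23 were highest of all libraries in control 3 and 28 were lowest of all in DDR1 4. The median deviation from each gene's mean was 1.27 in control 3, 0.29 in the library labelled DDR1 1 and -1.95 in DDR1 4, while the high libraries lay between -0.10 and 0.56. RSAD2, an antiviral enzyme, stood at 141 CPM in control 3, 32.1 in the library labelled DDR1 1 and 1.6 in DDR1 4, with 32.1 to 53 CPM on the high side. IFI44L stood at 398, 381 and 20.6 CPM in the same order, with 290 to 606 CPM on the high side. Libraries that share a low THBS1 therefore hold both the highest and the lowest interferon response of the series.

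**Figure D4:**
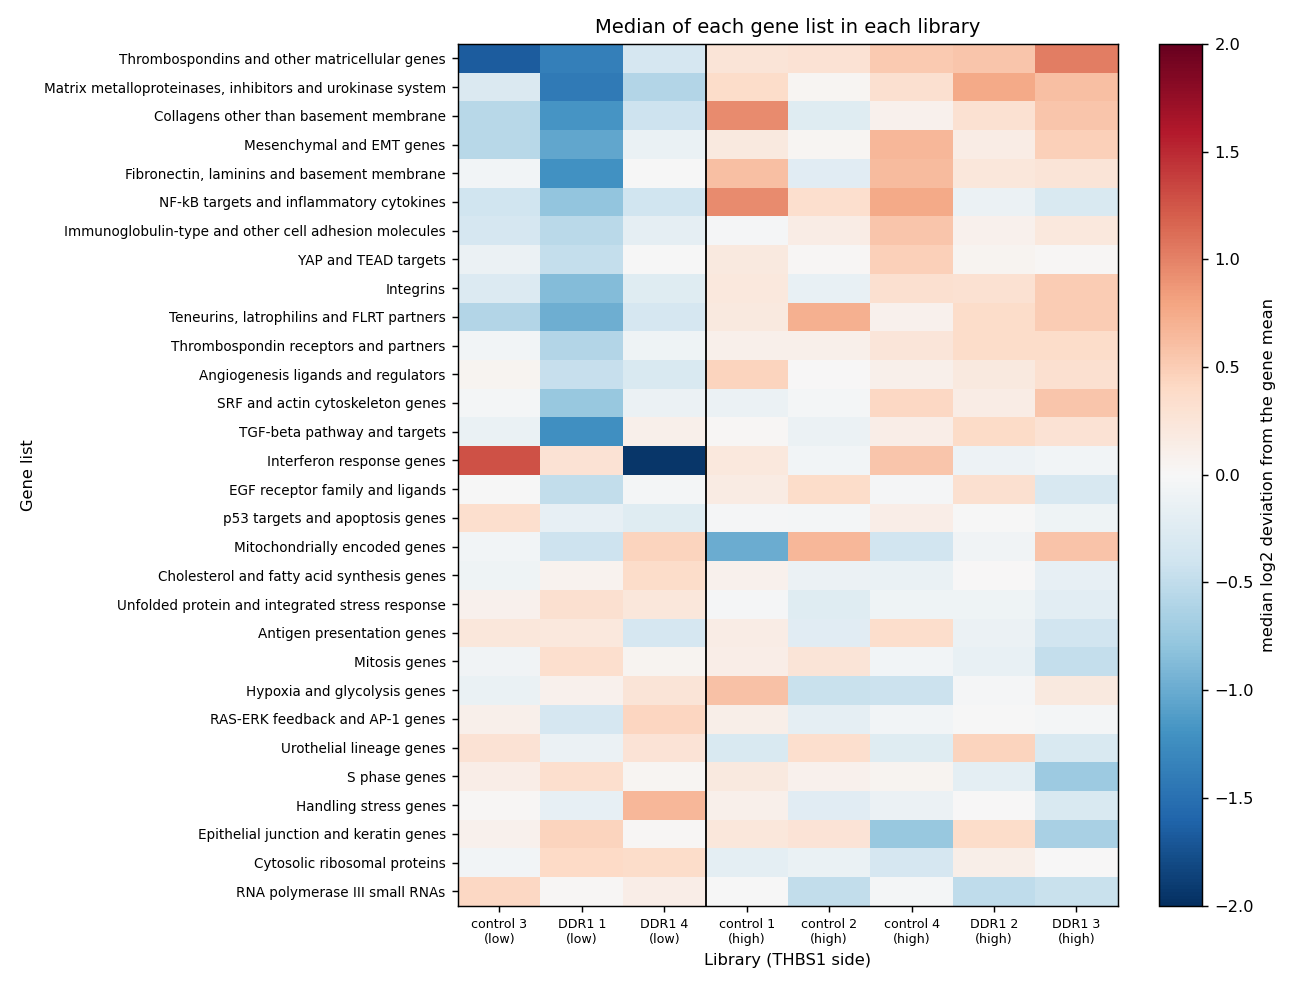
Median deviation of the tested members of 30 gene lists from each gene's mean over the 8 libraries (log2 CPM), by library, with the 3 THBS1-low libraries left of the line and colours ending at -2 and 2. Matricellular genes are at -1.67, -1.37 and -0.33 in the low libraries, while interferon response genes are at 1.27, 0.29 and -1.95.

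Markers of other cell types were read in the same libraries, because a xenograft holds mouse stroma whose reads can align to conserved human genes, and whether mouse reads were removed is not given in the sources used here. Of 11 markers of fibroblasts and pericytes, 7 were tested and 4 were lower (COL1A1, COL3A1, PDGFRA and FAP), with a summed level of 13.6 to 25.5 CPM on the low side and 33.3 to 83.9 CPM on the high side. PDGFRA, a receptor of mesenchymal cells, stood at 1.03, 0.172 and 1.05 CPM against 3.37 to 33.1 CPM. DCN, LUM, COL1A2 and POSTN were too rare to test, with 0, 1, 2 and 1 counts in the low libraries together and 15, 10, 60 and 118 in the high libraries together. These counts move with the lower matrix genes, and their part in the result was not tested.

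Of 10 endothelial markers 5 were tested and none was apart, with a summed level of 10.8 to 82.1 CPM against 15.3 to 59.2 CPM. CDH5, the cadherin of endothelium, was highest of all in DDR1 4, at 50.9 CPM. Of 12 myeloid markers 6 were tested and none was apart, with summed levels of 50.1 to 56.9 CPM against 22.3 to 271 CPM. PTPRC, the pan-leukocyte marker, had 1 count in the low libraries and 9 in the high ones. Lymphocyte markers were represented by CD4 alone, at 0.201 to 0.549 CPM against 0.166 to 1.21 CPM, and the other 7 of 8 were too rare to test. Of 8 muscle markers 3 were tested and none was apart, at 29 to 83.9 CPM against 6.12 to 61.6 CPM. Of 6 adipocyte markers 3 were tested and FABP4 and LPL were lower, with a summed level of at most 1.07 CPM on the low side and 7.68 CPM on the high side. None of the 5 red cell markers could be tested.

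The position and composition of genes were examined after the values were seen. Genes lower on the low side had a median GC content of 43.3%, transcript length of 4150 bases and span of 71.6 kb, against 47.6%, 2989 bases and 22.1 kb for all tested genes. Genes higher there had 60.2%, 2315 bases and 11.5 kb. By library, the fifth of genes richest in GC deviated by 0.17 in control 3, -0.02 in the library labelled DDR1 1 and 0.39 in DDR1 4, and by -0.27 to 0.08 on the high side. The low libraries therefore do not share one shift with GC, and its part in the higher genes was not tested beyond the recount of 127 above.

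Chromosome medians were taken over 10976 protein-coding genes of at least 5 CPM as deviation from each gene's mean over the libraries. The sides were apart on 6 of 23 chromosomes, with 1, 4 and 5 lower and 16, 17 and 22 higher on the low side. After removal of the GC trend the number was again 6, but chromosome 16 overlapped and chromosome 10 was apart and higher in its place. Chromosome 22 was at 0.22, 0.31 and 0.43 in control 3, the library labelled DDR1 1 and DDR1 4 and between -0.27 and -0.09 in the high libraries, a difference of 0.52 (0.39 after removal of the GC trend). The shift ran along the chromosome: in each of 3 equal blocks of its genes by position, the low libraries were between 0.18 and 0.51 and the high libraries between -0.32 and -0.02. Of 474 tested genes on chromosome 22, 33 were apart and higher (6.96%, against 1.40% of all) and 4 were lower. Chromosome 4 was at -0.26, -0.20 and -0.32 against -0.04 to 0.27, and 58 of its 639 genes were apart and lower (9.08%, against 3.16% of all). CXCL10, CXCL11, FGF5, TLL1, VEGFC, PDGFRA, EGF and EPGN are among the named genes there.

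Other chromosomes differed between the low libraries themselves. Chromosome 5 was at -0.63 in control 3 but at -0.08 and -0.10 in the library labelled DDR1 1 and DDR1 4, and 62 of its 841 genes were lower (7.37%). Chromosome 15, which carries THBS1, was at -0.40 and -0.39 in control 3 and the library labelled DDR1 1 but at 0.14 in DDR1 4. Chromosome 14 was at -0.54 in control 3 and at 0.41 and 0.32 in the libraries labelled DDR1 1 and 4, and chromosome 2 was at 0.33 in control 3 and -0.47 in DDR1 4. Medians of at least 0.3 in size were found on 5, 4 and 4 chromosomes in the low libraries and on 1, 0, 0, 1 and 0 in controls 1, 2 and 4 and DDR1 2 and 3. After removal of the GC trend the numbers were 6, 4 and 2 in control 3, the library labelled DDR1 1 and DDR1 4, and the same as before in the high libraries. When the chromosome median was subtracted in each library, 553 genes were lower and 167 higher, of which 466 and 132 were among the 600 and 266.

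**Figure D5:**
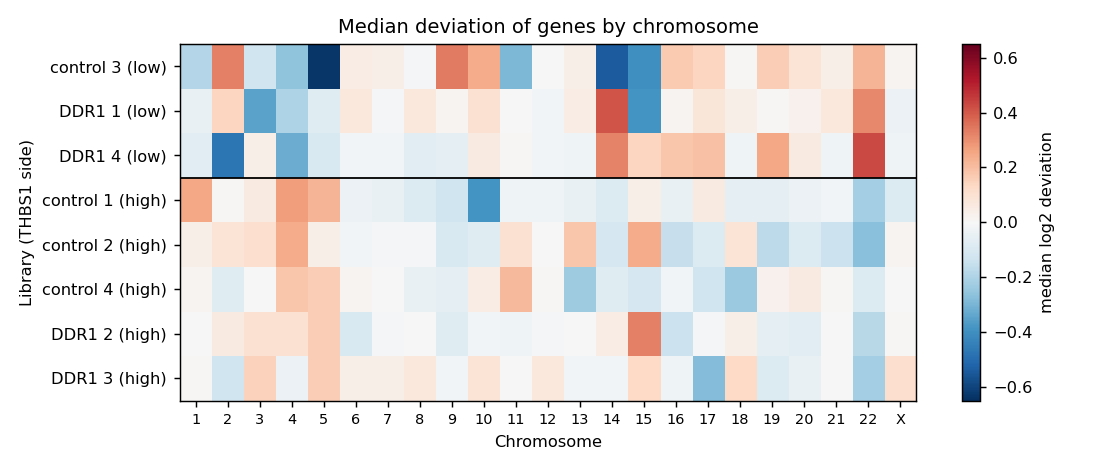
Median log2 deviation of genes on each chromosome (horizontal) in each library (vertical, the 3 THBS1-low libraries above the line), from blue (below the gene means) to red (above). Chromosome 22 is at 0.22 to 0.43 in the low libraries and at -0.27 to -0.09 in the others, while chromosomes 2 and 14 differ among the low libraries.

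Genes were also ranked by Pearson correlation of log2 CPM with THBS1 over the 8 libraries, among genes with a mean of at least 5 CPM; the points share their libraries and depth, and no p is given. The highest were PLAG1 (0.989), a zinc finger transcription factor, PAPSS2 (0.982), which makes the sulphate donor for proteoglycans, GABARAPL1 (0.980), an autophagy gene, MAML2 (0.977), a Notch co-activator, and the host transcript MIR100HG (0.977). MAML2 stood at 7.56, 1.49 and 8.83 CPM in control 3, the library labelled DDR1 1 and DDR1 4 against 39.9 to 79.3 CPM. PLAG1 was at 22.2 to 34.9 CPM against 44.5 to 71.1 CPM, so its pattern was like that of THBS1 but its differences were smaller. The lowest were PES1 (-0.988), PHF5A (-0.987), PRIM1 (-0.986), ADSL (-0.986) and NIPSNAP1 (-0.980). PES1, a factor of ribosome assembly, stood at 140, 189 and 156 CPM against 77 to 99 CPM. Of the 20 genes most opposite to THBS1, 10 lie on chromosome 22, which restates the higher median of that chromosome in the low libraries and adds no support to it.

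Motifs in the 250 bases before the start were counted over all RefSeq promoters of the genes concerned, 372 for the lower genes, 144 for the higher ones and 11384 for all tested genes. The AP-1 motif was present in 8.6% of the lower, 3.47% of the higher and 4.44% of all tested promoters. The interferon element was present in 5.91%, 1.39% and 2.52%, and TATAAA in 13.4%, 3.47% and 5.98%. The kappa B motif, seen in THBS1, VCAM1 and CXCL10 above, was present in 6.72%, 4.86% and 7.22%, and the TEAD motif in 10.5%, 9.72% and 9.79%. Over all 27305 promoters of the table the shares were 6.6% for AP-1, 3.07% for the interferon element, 11.1% for TATAAA, 5.81% for kappa B and 11.9% for TEAD. These are counts of letters, and the sets differ in GC content as given above.

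The comparison that the labels give, DDR1 against control, does not use the THBS1 values to form its groups and was tested over all 18973 genes. It is not balanced over the sides, since 1 of 4 controls and 2 of 4 libraries labelled DDR1 are low. In the column names no library labelled DDR1 shares its prefix or its final token with a control. Any difference that goes with these names therefore cannot be told apart from the label. No gene passed an adjusted p under 0.05 by edgeR's quasi-likelihood test (0%), and the smallest adjusted p was 0.9998. Without adjustment 791 genes had p under 0.05 (4.17%), by limma-voom 738 did with 0 called, and DESeq2 called 16. Of the 866 genes apart between the THBS1 sides, 36 had an unadjusted p under 0.05 by edgeR (4.16%). The median log2 fold change, DDR1 against control, was -0.40 for the genes lower on the low side and 0.34 for those higher there. For all genes it was -0.00. Since 2 of 4 libraries labelled DDR1 and 1 of 4 controls are low, these signs follow from how the genes were picked. They are no result about DDR1. Genes apart between the sides also spread widely within both conditions, which bears on the count of 36. By edgeR and limma-voom no member of any of the 37 lists was called in either direction. THBS1 was at 758 ± 443 CPM in controls and 1087 ± 1539 CPM in libraries labelled DDR1 (SD, n = 4 each), with a log2 fold change of 0.52 (SE 1.14, edgeR adjusted p = 1). VCAM1 was at 280 ± 216 and 170 ± 223 CPM, with -0.72 (SE 1.26, edgeR adjusted p = 1). MUC2 had a log2 fold change of 0.34 (SE 1.04, edgeR adjusted p = 1). For these 3 genes the spread within each condition exceeded the difference between conditions. DDR1 itself had a log2 fold change of 1.52 (SE 0.43), an unadjusted p of 0.00612 by edgeR and an adjusted p of 1. Without the library labelled DDR1 1, no gene was called either, and 927 had an unadjusted p under 0.05 by edgeR.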

How the data were processed

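RNA from 8 T24 xenograft tumours was sequenced as paired ends of 150 bases, per the labels' protocols, from poly(A)-selected, randomly primed libraries. The deposited table of expected counts (estimated counts per gene, 58302 genes, 26.5% of values above 0 not whole) came, per the submitters' processing notes, from RSEM 1.3.1 with STAR 2.7.5 on GRCh38, and these notes also name Trim Galore 0.6.4 and FastQC 0.11.9. Their settings, annotation, strand use and any removal of mouse reads are not stated there. The authors also deposited log2 values after TMM scaling (22480 genes), used only as an alternative, as they stand. The 8 files of single libraries held the same values and were not used.

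Expected counts were rounded to whole numbers, filtered with filterByExpr by label group (minimum count 10, 18973 genes), TMM-scaled and turned into log2 CPM (prior count 2) with edgeR 4.0.16 in R 4.3.3. Totals ran from 13716285 to 32271016. The THBS1 sides were compared by description only. DDR1 against control was tested with edgeR's quasi-likelihood test and Benjamini-Hochberg adjustment, with DESeq2 1.42.0 and limma-voom (limma 3.58.1) as alternatives. The edgeR and description code was run on simulated data first. The members and lists were chosen with earlier results of these data known. Gene names and positions came from GENCODE release 29 on GRCh38, which held 58039 of the 58302 identifiers. Values of overlapping, antisense or near-identical genes are uncertain.

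Named genes were THBS1, VCAM1, FN1, TENM2 and DDR1, the 15 largest differences in each direction among protein-coding genes apart with a median of at least 5 CPM on the higher side, up to 3 members per list apart between the sides (or the most abundant), the 5 genes most and 5 least correlated with THBS1, and the most abundant marker of each other cell type, 99 in all. Further list members are given for contrast within their list and were chosen after their values were seen. Promoters came from RefSeq, which held 57 of the 99.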

Additional observations from a re-analysis of the deposited data

Results flagged for a closer look

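Within a condition of 4 libraries, a value was singled out where the highest or lowest library stood apart from the nearest other by more than the 95% critical share of the range in Dixon's test. Of 198 such groups over the named genes, 18 met this, and for values with a normal spread chance alone gives about 1 in 20. The rule was applied to CPM and not to log2 values, and many of the genes were named by the split itself. That share is therefore only a rough guide here. All 18 values were the highest of their group, and low values are harder to single out on the CPM scale. No explanation was tested for any of them.

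Control 3, the only THBS1-low control, stood apart from the other controls for 7 genes, in each case as the highest: MUC2 at 530 CPM (the others 39.4 to 56.8), NPBWR1 at 22.2 CPM (0.456 to 3.59), NTSR1 at 6.92 CPM (0.228 to 0.884), SEMA3B, a secreted semaphorin, at 8.98 CPM (0.884 to 1.29), DUSP4 at 129 CPM (28.4 to 36.8), MCM4, a subunit of the replicative helicase, at 217 CPM (180 to 182), and NIPSNAP1, a mitochondrial protein, at 65.8 CPM (54.6 to 55.4). These genes were named for their difference between the sides or their correlation with THBS1, or as the most abundant of their list, so the place of control 3 is no independent support.

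Among the libraries on the high side, DDR1 3 stood apart from the other libraries labelled DDR1 with ZNF385D at 67.6 CPM (0 to 0.821), CTNNA3 at 36.4 CPM (0.0998 to 2.05) and EPGN, a ligand of the EGF receptor, at 1.01 CPM (0.399 to 0.442). DDR1 2 did so with the myeloid and epithelial gene S100A9 at 171 CPM (0.748 to 22.2). Control 4 stood apart from the other controls with CXCL11 at 45.8 CPM (1.72 to 5.86), PDGFRA at 33.1 CPM (1.03 to 4.79) and LPL, lipoprotein lipase, at 6.76 CPM (0.387 to 0.774), and control 1 with MCL1, an inhibitor of apoptosis, at 651 CPM (390 to 417).

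On the low side, DDR1 4 stood apart with TNXB at 31.9 CPM (2.58 to 5.28) and RPS2, a ribosomal protein with many pseudogenes, at 1583 CPM (982 to 994), and the library labelled DDR1 1 with AC007325.2 at 40.2 CPM (0.686 to 3.04).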

How the results depend on the processing

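The counts of 600 lower and 266 higher genes moved by over 1.5 times under several choices. They were 1479 and 1154 within controls, 1315 and 679 within the libraries labelled DDR1, 1005 lower without a filter, 283 and 127 with at least 5 CPM in 3 libraries, 1275 and 1359 for no overlap of any size, and 266 and 33 for a difference of 2. Among the alternatives added after seeing the data, 127 were higher after subtracting GC medians and 167 after chromosome medians. Leaving out 1 library, with the genes filtered anew and fewer libraries to overlap, gave 704 to 1037 lower and 264 to 479 higher genes. The counts were 1035 and 479 without control 3, 793 and 444 without the library labelled DDR1 1, and 1037 and 434 without DDR1 4. Thresholds of 300 and 500 CPM for THBS1 gave the same split. Among the named genes none changed sign between the sides under RLE scaling, no scaling, either prior count, the authors' log2 values or any library left out. Most of them were named because the sides do not overlap or for their correlation with THBS1. Their sign could therefore hardly change, and this is no independent support. For DDR1 against control, DESeq2 called 16 genes, and edgeR with RLE, without a filter or with any library left out called 0, as did limma-voom. With 1 library left out the log2 fold change ran from -1.15 to 0.93 for THBS1, -1.25 to 0.81 for TENM2 and -1.35 to 0.08 for FN1. The log2 fold change of THBS1 turned to -1.03 and that of TENM2 to -1.55 by limma-voom, to -1.15 and -1.25 without DDR1 3, and that of FN1 to 0.08 without the library labelled DDR1 1 and 0.06 without DDR1 4; the cause was not tested. No paired analysis was possible because the replicate numbers come from accession order and pair nothing. Genes under about 0.5 CPM rest on few counts.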
